A study of Homo sapiens with 6 samples.

Results

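MYC works as a heterodimer with MAX, and the 9 genes described here encode MYC, MAX and the proteins that compete for or branch from that pairing: MXD1, MXD3, MXD4, MXI1, MNT, MGA and MLX. They were chosen by symbol, from the known network and not from their values, and all 9 were found among the 36601 genes counted in each library. The data were single-cell RNA-seq libraries of the human cell line SK-N-BE(2)-C, grown from a neuroblastoma and known for its amplified MYCN gene, made on the Seq-Well S3 platform, which captures single cells in small wells and counts transcripts by molecular identifiers (UMIs). The 6 libraries comprised 2 from cells given DMSO, the solvent control, 2 from cells given TSA, the usual abbreviation of the histone deacetylase (HDAC) inhibitor trichostatin A, and 2 from cells given E6R. The series title describes a compound that acts on HDAC complexes without blocking the enzyme, and its design text calls the treatments HDAC inhibitors. The labels state no dose, exposure time or structure of E6R, nor whether replicates came from separate cultures, so p-values measure the spread between these libraries, which may be technical. The question put to the data was how far the members differed between the 3 treatments.

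MAX is the shared partner of the network: it dimerises with MYC, MYCN or MYCL to activate genes at E-boxes, the 6-base motif CACGTG, and with MXD proteins, MNT or MGA to repress them. MXD1, MXD3, MXD4, MXI1 and MNT carry a short helix that binds SIN3A or SIN3B, scaffolds that bring HDAC1 and HDAC2 to the gene, so this side of the network silences through deacetylation. MGA is the scaffold of a variant Polycomb complex, PRC1.6, and MLX forms a parallel branch with MondoA (gene MLXIP) and ChREBP (gene MLXIPL) that reads glucose supply. In neuroblastoma with an amplified MYCN gene, MYCN takes the place that MYC holds in many other tumours.

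The promoters of 8 members were matched to RefSeq (build GRCh38.p14), as 13 windows of 300 bases from 250 before to 50 after an annotated start site. The E-box, searched on both strands, stood in 3 of the 13 windows, against 7.26% of all 35116 promoter windows. These were windows of MXD4, MNT and MLX, and the windows of MAX, MXD1, MXD3, MXI1 and MGA held none. The stretches around the E-box in these 3 promoters, and in that of ARRDC4, a gene driven by MondoA and MLX, are shown because they carry the motif, with the E-box in capitals and all bases upstream of the RefSeq start site. They lie at chr4:2262315-2262359 on the minus strand for MXD4, chr17:2401221-2401280 on the minus strand for MNT, chr17:42567023-42567082 on the plus strand for MLX and chr15:97960466-97960525 on the plus strand for ARRDC4. The upstream stretch of MXD1 at chr2:69914966-69915081 on the plus strand is shown because MXD1 had the largest fitted change of the 9, and its capitals mark the GC box GGGCGG, which was present in 10 of the 13 windows, against 45% of all windows.
MXD4: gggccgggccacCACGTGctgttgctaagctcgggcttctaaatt
MNT: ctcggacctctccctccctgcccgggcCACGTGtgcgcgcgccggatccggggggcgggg
MLX: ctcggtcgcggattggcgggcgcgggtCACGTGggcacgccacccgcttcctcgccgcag
ARRDC4: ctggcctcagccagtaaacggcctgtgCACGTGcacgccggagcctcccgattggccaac
MXD1: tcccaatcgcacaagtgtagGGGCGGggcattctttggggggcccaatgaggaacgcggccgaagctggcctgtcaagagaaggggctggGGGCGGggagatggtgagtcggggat

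A match is a description of the letters and no measure of binding. The E-box began 238 bases before the start site in MXD4, 193 before it in MNT and 50 before it in MLX. Under TSA these 3 genes had fitted log2 changes of -0.36, -0.75 and 0.93, of which only that of MLX passed the test described below. In GENCODE 29 (build GRCh38) MXD1 spans chr2:69897688-69942945 and MXI1 chr10:110207605-110287365, both on the plus strand with MGA at chr15:41621224-41773081 and MLX at chr17:42567068-42573239. The minus strand carries MAX at chr14:65006174-65102695, MXD3 at chr5:177301461-177312757, MXD4 at chr4:2247432-2262294 and MNT at chr17:2384060-2401118. All are protein-coding genes, and UMIs were counted per gene and not per exon.

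Cells were barcodes with at least 500 genes and at most 20% mitochondrial UMIs, 17589 in all and 1861 to 3946 a library, and they held 4206366 to 26180262 UMIs a library. DMSO libraries were the shallowest in total UMIs. The mitochondrial share of UMIs was 5.83% and 6.20% with DMSO, 6.08% and 9.71% with TSA and 1.55% and 1.51% with E6R, so it moved with treatment, and its part in the results was not tested. All 8 adrenergic neuroblastoma markers were detected in every library, at a summed 599 to 2061 CPM (UMI counts per 1000000 UMIs of the library's cells), while 8 markers of blood, liver, epithelial and endothelial cells summed to 1.26 to 29.5 CPM, mostly PECAM1 or ALB in the highest libraries, with 1 to 5 of the 8 at 0. Between 11 and 58 cell barcodes were shared by any pair of libraries, at most 2.11% of the smaller one, and leaving out these cells changed no call on a member.

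**Figure D1:**
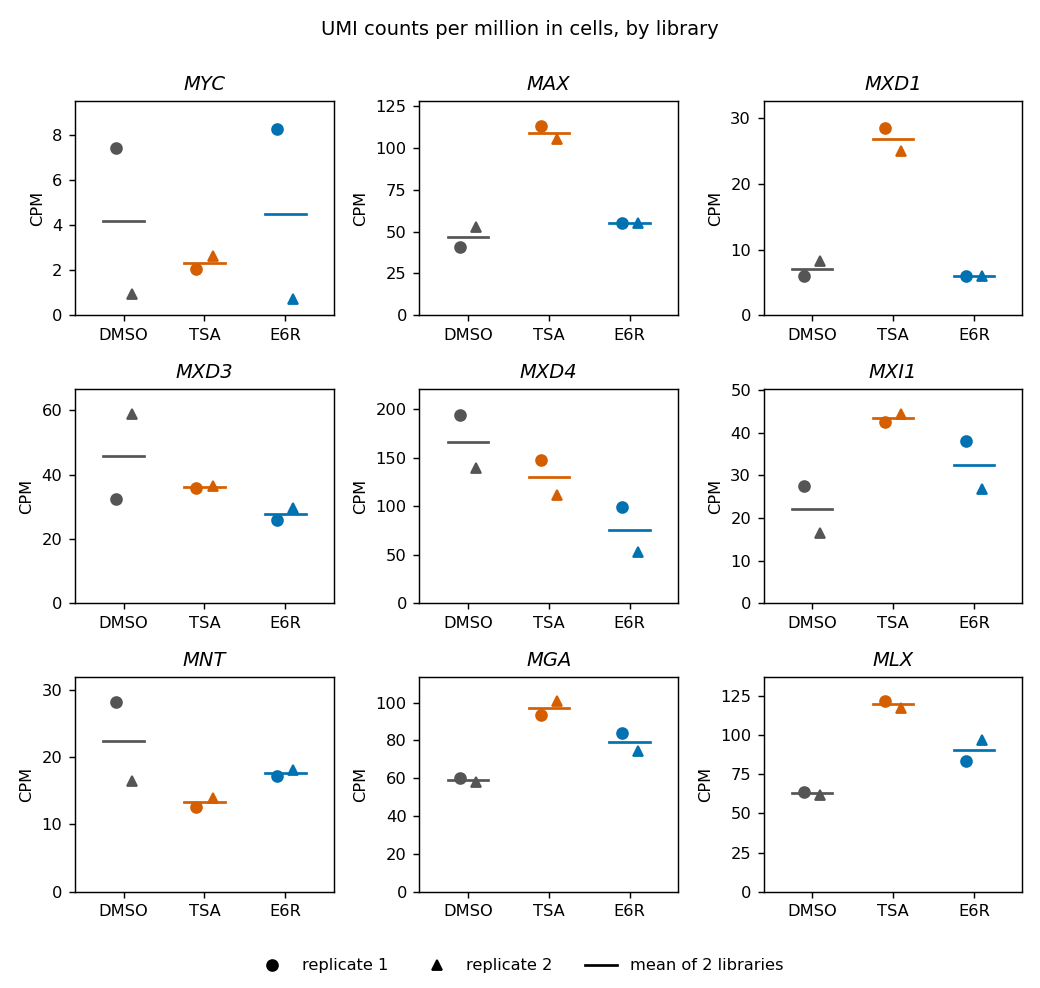
Level of each member in CPM (vertical axis from 0 in every panel) by treatment, with a point for each library (circle for replicate 1, triangle for replicate 2) and a line at the mean of the 2 libraries. MAX, MXD1, MXI1, MGA and MLX sit higher with TSA than with DMSO in both libraries, MXD4 steps down from DMSO to E6R, and the MYC points of replicates 1 and 2 lie far apart with DMSO and with E6R.

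With TSA 5 of the 9 members rose, MAX, MXD1, MXI1, MGA and MLX, by 1.65-fold to 3.77-fold, and none fell at the threshold of an adjusted p under 0.05 (edgeR quasi-likelihood test on UMI sums per library, Benjamini-Hochberg over all 16763 genes tested). The same test called 29.7% of all genes in either direction, 16.2% as higher and 13.5% as lower. E6R against DMSO gave no call on any member, against 0% of all genes. Both contrasts use the same DMSO libraries.

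MAX, the shared partner of the network, measured 40.6 and 53.0 CPM with DMSO, 113 and 105 CPM with TSA, and 54.97 and 55.3 CPM with E6R. Both TSA libraries were above all other libraries, and the E6R libraries lay just above the higher DMSO library. The log2 fold change with TSA was 1.22 ± 0.20 (SE, n = 2 against 2), a 2.33-fold rise with an edgeR adjusted p of 0.00488. With E6R it was 0.24, with an edgeR adjusted p of 0.570. The direct contrast of E6R with TSA gave -0.98 ± 0.20 and an edgeR adjusted p of 0.0068, in which 38.2% of all genes were called and 19.5% were called lower. The last call was lost without TSA replicate 1, at an adjusted p of 0.0567. The gene overlaps FNTB on the opposite strand, and FNTB changed by -0.22 with TSA, at an adjusted p of 0.554.

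MXD1, a MYC antagonist known for its rise in differentiating cells, had the largest fitted change of any member with TSA. Its level was 5.95 and 8.22 CPM with DMSO, 28.6 and 24.99 CPM with TSA, and 6.07 and 6.06 CPM with E6R. The TSA libraries stood apart from the other 4, and both E6R libraries lay between the DMSO values. The DMSO base was small, at 28 and 43 UMIs, against 376 and 287 with TSA and 96 and 161 with E6R. The rise with TSA was 3.77-fold (log2 1.91 ± 0.30, 95% interval 1.22 to 2.61, edgeR adjusted p = 0.00399), and E6R differed from TSA by -2.14 ± 0.29 on the log2 scale (edgeR adjusted p = 0.0015). E6R differed from DMSO by -0.23, with an edgeR adjusted p of 0.730. The TSA calls on MAX and MXD1 passed under each of the 20 alternative settings listed under the processing.

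The rise of MXD1 was also present in the share of cells with a UMI. After every cell was thinned to 1000 UMIs, MXD1 was found in 0.34% and 0.65% of cells with DMSO, 2.48% and 2.29% with TSA and 0.59% and 0.76% with E6R. The exact binomial 95% intervals of the TSA libraries, 1.82% to 3.30% and 1.77% to 2.92%, lay above those of the other 4, which reached 1.22% at most and, as all such intervals here, cover counting error only. The DMSO shares came from 4 and 11 cells. The exact two-sided permutation test of 2 libraries against 2 cannot go below p = 0.333, which is the value it gave here. Without thinning the shares were 1.34%, 1.28%, 11.4%, 6.71%, 2.97% and 2.99% in the same order, and these carry the difference in depth. MXD1 overlaps SNRNP27, a splicing factor gene on the same strand, which rose by 1.17 on the log2 scale (adjusted p = 0.0212), and the labels do not state how reads in the overlap were divided.

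MXI1, the family member also named MXD2, measured 27.6 and 16.4 CPM with DMSO, 42.6 and 44.3 CPM with TSA, and 38.1 and 26.7 CPM with E6R. The TSA libraries were highest, and the range of E6R overlapped that of DMSO. The rise with TSA was 1.98-fold (log2 0.98 ± 0.30, edgeR adjusted p = 0.0437), close to the threshold. It was lost when DMSO replicate 2, TSA replicate 1 or TSA replicate 2 was left out, at adjusted p of 0.259, 0.149 and 0.167, and passed in 11 of the 20 alternatives.

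MXD4, a member known from differentiated tissues, had its lowest levels with E6R. It measured 194 and 139 CPM with DMSO, 148 and 112 CPM with TSA, and 99.4 and 52.5 CPM with E6R. Both E6R libraries lay below every other library, while TSA overlapped DMSO. Against DMSO the E6R libraries were at 0.456 of the level (log2 -1.13 ± 0.33, 95% interval -1.90 to -0.37), with an unadjusted p of 0.00915 and an edgeR adjusted p of 0.211, which does not pass. Against TSA the change was -0.77 with an edgeR adjusted p of 0.0968. With the replicate number as a block the E6R against TSA change was -0.82 and passed, at an edgeR adjusted p of 0.0083.

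The share of cells with an MXD4 UMI, thinned to 1000 UMIs, was 19.6% and 15.5% with DMSO, 11.99% and 9.25% with TSA, and 8.46% and 4.40% with E6R. At this depth no group overlapped another, and both treated groups lay below DMSO. Both also lay below DMSO with cells thinned to 500 or 2000 UMIs and in cells with at most 10% mitochondrial UMIs, but in these settings E6R overlapped TSA, with shares at 2000 UMIs of 21.9% and 16.4% with TSA and 17.3% and 10.7% with E6R. Mean shares were 17.5% ± 2.95, 10.6% ± 1.94 and 6.43% ± 2.87 (SD, n = 2), and each pair of groups gave the smallest exact permutation p possible, 0.333. Library sums weigh cells by their depth and shares of thinned cells do not, and 503 to 1718 cells a library under 1000 UMIs were left out of the shares. Unthinned shares of 28.0%, 18.3%, 33.6%, 22.02%, 27.4% and 15.8% showed no such order.

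MXD3, the member known from cycling cells, measured 32.5 and 58.9 CPM with DMSO, 35.7 and 36.6 CPM with TSA, and 25.8 and 29.6 CPM with E6R. The 2 DMSO libraries differed more from each other than the group means did. The log2 change was -0.34 with TSA (edgeR adjusted p = 0.403) and -0.72 with E6R (edgeR adjusted p = 0.265). Both E6R libraries lay below the lower DMSO library.

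MNT, a repressor present in cycling and resting cells alike, measured 28.3 and 16.4 CPM with DMSO, 12.6 and 13.9 CPM with TSA, and 17.2 and 18.1 CPM with E6R. Both TSA libraries were the lowest of the 6. The log2 change of -0.75 ± 0.31 with TSA had an edgeR adjusted p of 0.103 and passed only without DMSO replicate 2 (0.0454) and when libraries were scaled by total counts alone (0.0368). In all 6 libraries the MNT level was higher in barcodes with fewer than 300 genes, which hold free RNA and broken cells, than in cells.

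MGA, the largest protein of the network and the scaffold of PRC1.6, measured 60.3 and 57.8 CPM with DMSO, 93.3 and 101 CPM with TSA, and 83.9 and 74.5 CPM with E6R. By CPM the groups did not overlap, with DMSO lowest and TSA highest. The share of cells with an MGA UMI, thinned to 1000 UMIs, put E6R above TSA instead, at 6.07% and 6.06% with DMSO, 7.45% and 7.14% with TSA and 8.46% and 8.71% with E6R. The order of the 2 compounds is therefore not read from either measure. At 500 UMIs the share with TSA overlapped DMSO, at 4.30% and 3.65% against 4.30% and 3.29%. It also overlapped in cells with at most 10% mitochondrial UMIs, at 7.02% and 6.91% against 7.03% and 6.07%. At 2000 UMIs it lay above DMSO, and the share with E6R lay above DMSO in all of these settings. The rise with TSA was 1.65-fold (log2 0.72 ± 0.18, edgeR adjusted p = 0.0220), and it was lost, at adjusted p of 0.0834 to 0.146, when any DMSO or TSA library was left out; it passed in 12 of the 20 alternatives. With E6R the change was 0.42, with an unadjusted p of 0.0487 and an edgeR adjusted p of 0.286.

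MLX measured 63.9 and 62.0 CPM with DMSO, 122 and 118 CPM with TSA, and 83.9 and 97.4 CPM with E6R. Its 3 groups did not overlap by CPM, with DMSO lowest and TSA highest. The rise with TSA was 1.90-fold (log2 0.93 ± 0.18, edgeR adjusted p = 0.00869). Leaving out DMSO replicate 2, TSA replicate 1 or TSA replicate 2 took it to adjusted p of 0.0706, 0.0595 and 0.0563. E6R stood 0.53 above DMSO on the log2 scale, with an unadjusted p of 0.0202 and an edgeR adjusted p of 0.226. PSMC3IP, which overlaps MLX on the opposite strand, changed by 0.06 with TSA, at an edgeR adjusted p of 0.904.

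The TSA and DMSO libraries did not overlap for 6 of the 9 members, 5 of them higher and MNT lower, against 71.3% of all genes tested. For E6R against DMSO 5 of 9 did not overlap, MAX, MGA and MLX higher and MXD3 and MXD4 lower, against 47.3% of all genes, so the share of members was near that of genes at large in both contrasts. The share of cells with a MAX UMI was not higher with E6R than with DMSO throughout. In cells thinned to 1000 UMIs E6R, at 4.77% and 5.07%, overlapped DMSO, at 3.45% and 5.11%. At 2000 UMIs E6R lay below DMSO, at 10.1% and 8.94% against 10.3% and 12.8%. An unadjusted p under 0.05 was reached with E6R by 4 members, MXD3, MXD4, MGA and MLX, against 17.4% of all genes. For E6R against TSA 8 of 9 did not overlap, 7 of them lower with E6R and MNT higher, against 72.6% of all genes, and 3, MAX, MXD1 and MXD4, had an unadjusted p under 0.05, against 48.5%. With DESeq2 338 genes passed for E6R against DMSO at an adjusted p under 0.05, and again no member did.

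**Figure D2:**
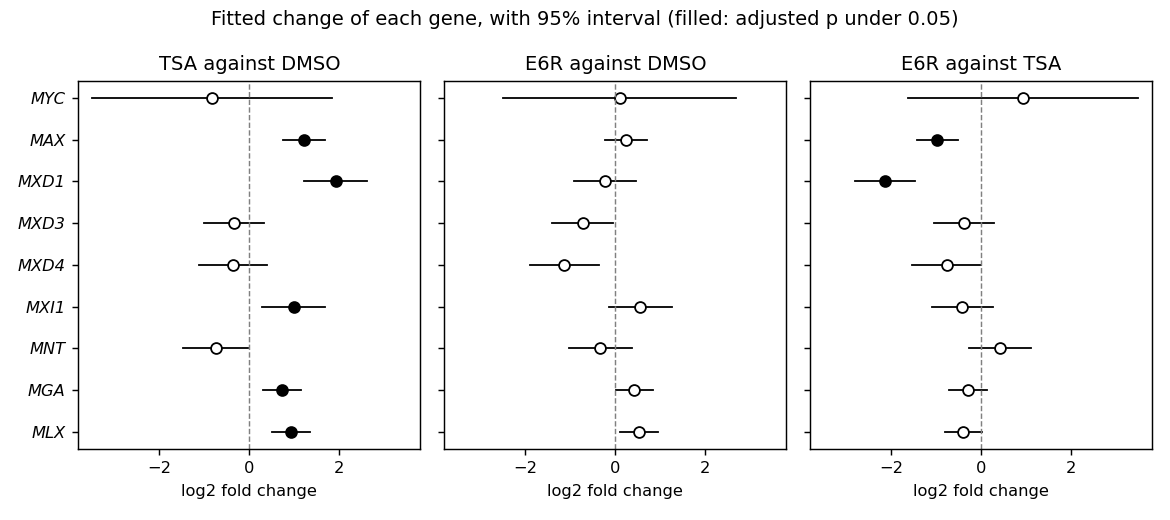
Fitted log2 fold change of each member (horizontal axis) in the 3 contrasts, with 95% intervals from the edgeR fit; filled points have an adjusted p under 0.05. MAX, MXD1, MXI1, MGA and MLX are filled for TSA against DMSO, no point is filled for E6R against DMSO, and MAX and MXD1 are filled for E6R against TSA.

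MYC itself was near the limit of detection. It had 35 and 5 UMIs with DMSO, 27 and 30 with TSA, and 131 and 19 with E6R, which is 7.44 and 0.956 CPM, 2.05 and 2.61 CPM, and 8.28 and 0.715 CPM. Replicates differed more than treatment means: replicate 1 exceeded replicate 2 by 7.98 times with DMSO (exact Poisson interval 3.11 to 26.1) and 11.4 times with E6R (7.04 to 19.6), and the ratio was 0.839 with TSA (0.480 to 1.46). No treatment contrast passed, with edgeR adjusted p of 0.610 for TSA, 0.976 for E6R and 0.531 for E6R against TSA, and intervals that span both directions.

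In cells thinned to 1000 UMIs MYC was found in 1.01% and 0.864% of cells of replicate 1 with DMSO and E6R. In replicate 2 of these treatments it was found in 0 of 1682 and 0 of 2228 cells. The floor of 3 counts used for a count of 0 would be 0.178% and 0.135% of cells. The exact binomial 95% intervals reach 0.219% and 0.165%. The TSA libraries held 0.216% and 0.179%. Small barcodes carried MYC at 2.50 to 7.72 CPM, and cells were above the small barcodes of their own library in 2 of the 6.

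Other genes also differed between the replicates with DMSO and E6R, and their part in the result was not tested. FN1, a mesenchymal marker, stood at 128 and 21.1 CPM with DMSO, 350 and 322 CPM with TSA, and 200.5 and 13.3 CPM with E6R. PECAM1, an endothelial marker, stood at 24.2 and 1.25 CPM with DMSO and 27.8 and 0.382 CPM with E6R. Within DMSO replicate 1 the 30 cells with a MYC UMI held FN1 at 507 CPM and MYCN at 335 CPM, and the 1831 cells without one held 114 and 445 CPM. In E6R replicate 1 the 95 MYC-positive cells held FN1 at 741 CPM against 150 CPM and MYCN at 457 CPM against 761 CPM. The TSA libraries did not share this pattern throughout: MYC-positive cells held FN1 at 298 CPM against 323 CPM in TSA replicate 2, and MYCN at 203 against 198 CPM in TSA replicate 1 and 295 against 249 CPM in TSA replicate 2. The 11 MYC-positive cells of E6R replicate 2 held FN1 at 47.2 against 12.6 CPM and MYCN at 337 against 673 CPM. The 4 of DMSO replicate 2 held FN1 at 0 against 21.1 CPM and MYCN at 349 against 341 CPM. MYC-positive cells were also deeper in every library but DMSO replicate 2, with a median of 10853 UMIs against 1814 in E6R replicate 1. Cells of 1 library are no replicates, so these values are a description.

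MYCN made up 98.1% to 99.8% of the UMIs of MYC, MYCN and MYCL together. Its level was 394 and 313 CPM with DMSO, 215 and 291 CPM with TSA, and 733 and 657 CPM with E6R, so that the E6R libraries were highest and the TSA libraries lowest. E6R was above TSA by 1.46 ± 0.23 on the log2 scale (edgeR adjusted p = 0.00273), while neither passed against DMSO (adjusted p of 0.148 for TSA and 0.205 for E6R). MYCL, the third paralog, averaged 0.584, 1.73 and 1.08 CPM and passed in no contrast.

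The balance of repressor partners to MYC-family transcripts differed with treatment. UMIs of MXD1, MXD3, MXD4, MXI1, MNT and MGA together, divided by the MYC-family UMIs of the same library, gave 0.867 and 0.943 with DMSO, 1.65 and 1.13 with TSA, and 0.364 and 0.315 with E6R. The groups did not overlap, TSA being highest and E6R lowest. Means were 0.905 ± 0.0535, 1.39 ± 0.370 and 0.340 ± 0.0348 (SD, n = 2). The same ratio for MAX was 0.101 and 0.168 with DMSO, 0.516 and 0.356 with TSA, and 0.0740 and 0.0840 with E6R. These ratios compare captured 3′ tags within a library and not proteins, and they were not tested. The MYC-family UMIs were 98.1% to 99.8% MYCN, so these ratios can move because MYCN moved. Repressor UMIs were 1640 and 1552 with DMSO, of 4206366 and 4793493 UMIs in cells. With TSA they were 4747 and 3819 of 14282282 and 13318200, and with E6R 4281 and 5514 of 15781024 and 26180262. Per UMI in cells, neither TSA library exceeded DMSO replicate 1.

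The make-up of the repressor UMIs shifted as well. MXD4 took a smaller share in all 4 treated libraries than with DMSO, with 55.6% and 46.8% of repressor UMIs with DMSO, 41.0% and 33.6% with TSA, and 36.7% and 25.3% with E6R. MGA took 17.3% and 19.5% with DMSO, 25.9% and 30.4% with TSA, and 31.0% and 35.9% with E6R. The share of MXD1 was 1.71% and 2.77% with DMSO, 7.92% and 7.52% with TSA, and 2.24% and 2.92% with E6R, so it was set apart under TSA alone. A share can move because another member moved.

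**Figure D3:**
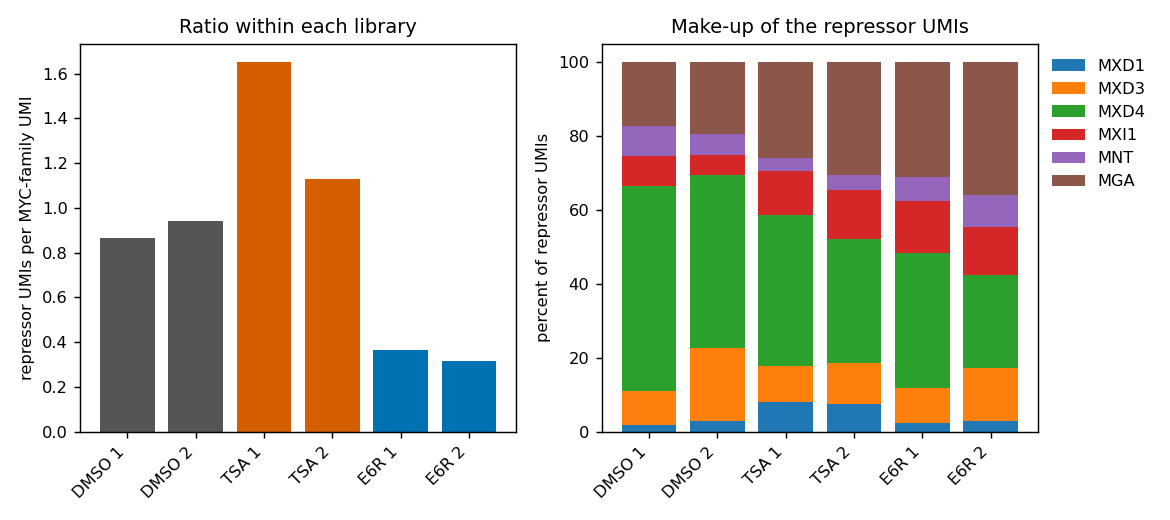
Left, UMIs of the 6 repressor partners per UMI of MYC, MYCN and MYCL in each library; right, the percent of repressor UMIs from each partner. The TSA bars, at 1.65 and 1.13, are above the DMSO bars and the E6R bars, at 0.364 and 0.315, are below them, and the MXD4 band is widest with DMSO.

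In the branch of MLX, the target genes rose with TSA together with MLX, while its partners did not pass. TXNIP, which blocks glucose uptake and thioredoxin and is the classic target of MondoA and MLX, measured 93.1 and 99.3 CPM with DMSO, 629 and 575 CPM with TSA, and 76.3 and 166 CPM with E6R. ARRDC4, its arrestin-fold relative, measured 8.07 and 9.37 CPM, 30.7 and 39.1 CPM, and 8.97 and 5.68 CPM in the same order. Both genes were highest in the TSA libraries without overlap. TXNIP rose 6.26-fold (log2 2.65 ± 0.35, edgeR adjusted p = 0.00235) and ARRDC4 3.99-fold (log2 2.00 ± 0.32, edgeR adjusted p = 0.00445). E6R differed from TSA by -2.31 for TXNIP and -2.26 for ARRDC4 (edgeR adjusted p of 0.00216 and 0.00163). The TXNIP promoter windows held no exact CACGTG, and that of ARRDC4 is printed above. Inexact forms of the motif were not searched, so the absence in TXNIP covers the exact letters only.

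MLXIP, the gene of MondoA, averaged 63.3 ± 20.5 CPM with DMSO, 72.7 ± 8.78 CPM with TSA and 37.4 ± 15.3 CPM with E6R (SD, n = 2). It passed in no contrast, with edgeR adjusted p of 0.671, 0.292 and, for E6R against TSA, 0.0518. The last contrast passed in 9 of 20 alternatives, among them the fit with the replicate block (log2 -1.04, edgeR adjusted p = 0.0099). MLXIPL, the gene of ChREBP, was low throughout, at 2.12 and 0.956 CPM with DMSO, 4.33 and 6.27 CPM with TSA and 0.190 and 0.640 CPM with E6R. The difference of E6R from TSA passed (log2 -3.57, edgeR adjusted p = 0.00559), and the change with TSA did not (log2 1.79, edgeR adjusted p = 0.0826). The E6R against TSA value for MLXIPL ran from -4.69 without E6R replicate 2 to -2.96 without E6R replicate 1, and the call was lost without TSA replicate 2, at an adjusted p of 0.0531.

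**Figure D4:**
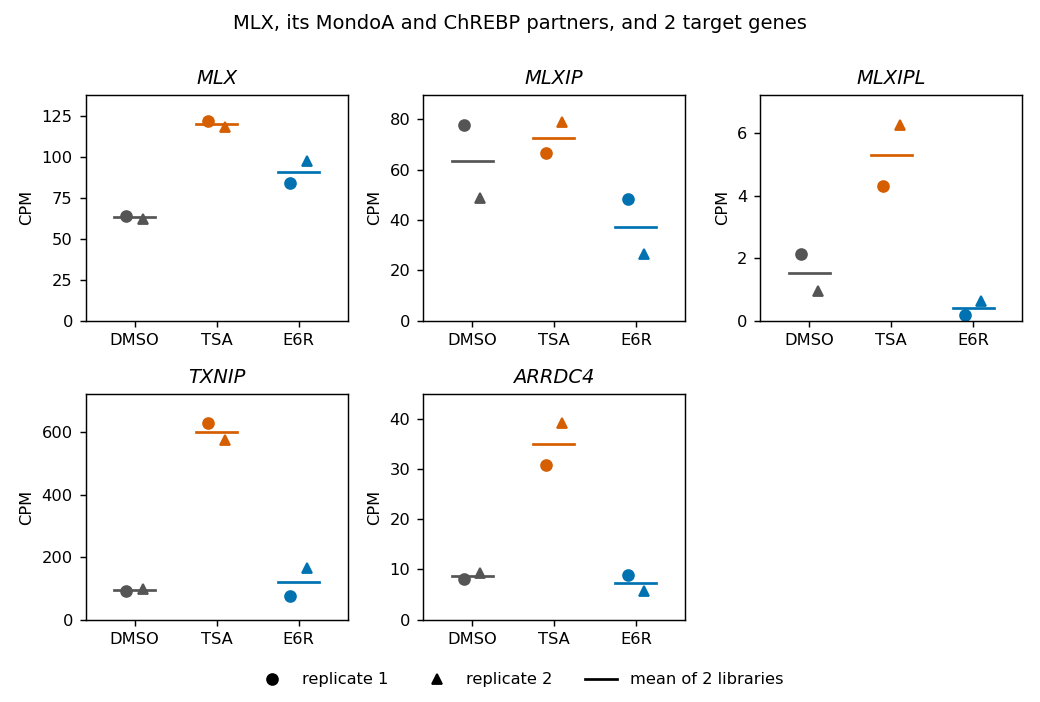
CPM by treatment (vertical axes from 0) of MLX, of MLXIP and MLXIPL, which encode its partners, and of the target genes TXNIP and ARRDC4; points are libraries and lines are means of 2. TXNIP and ARRDC4 are highest in both TSA libraries, near 602 and 34.9 CPM on average, and MLXIP overlaps between DMSO and TSA.

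SIN3A, a scaffold to which MXD proteins and MNT bind, rose with TSA. It measured 51.6 and 40.5 CPM with DMSO, 120 and 146 CPM with TSA, and 57.1 and 41.8 CPM with E6R, a 2.88-fold rise with TSA (log2 1.53 ± 0.24, edgeR adjusted p = 0.00401). SIN3B changed by 0.58, with an edgeR adjusted p of 0.0857. Of 17 genes of the SIN3 and HDAC corepressor, 5 rose with TSA and 1 fell, with a median log2 change of 0.43 against -0.01 over all genes. The share called, 35.3%, was near the 29.7% of all genes tested. SAP130 rose by 1.56 and HDAC1, a catalytic subunit, by 1.41, while SINHCAF, an accessory subunit, fell by 1.76 (edgeR adjusted p of 0.00261, 0.00267 and 0.00161). With E6R against DMSO none of the 17 passed, against 0% of all genes. For E6R against TSA 3 were higher and 8 lower, and the share called was 64.7% against 38.2% of all genes.

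Most of the PRC1.6 partner genes of MGA that passed were lower with TSA, while MGA was higher. Of 11 such genes 1 rose with TSA, RYBP by 0.90, and 4 fell, among them YAF2, its paralog, by 1.07 and CBX3, a heterochromatin protein, by 0.90 (edgeR adjusted p of 0.0136, 0.0129 and 0.0103). The median of the list was -0.09, and 45.5% of it was called against 29.7% of all genes. Of the 13 cofactors through which MYC proteins act, 2 rose and 2 fell with TSA, a share of 30.8% that is at the level of all genes. RUVBL2 and ACTL6A, chromatin-remodelling subunits, rose by 1.15 and 1.13, and the acetyltransferase gene KAT2A and HCFC1 fell by 1.32 and 0.98. Of 10 genes that set MYC protein stability 1 rose and 3 fell, a share of 40% against 29.7% of all genes: FBXW7, whose ligase marks MYC proteins for destruction, rose by 0.79, while the deubiquitinase gene USP7 and the kinase gene PLK1 fell by 1.68 and 1.21. The edgeR adjusted p was at most 0.0261 for these 7 genes of the last 2 lists.

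Of 22 textbook target genes of MYC 21 were tested; with TSA 1 rose and 4 fell, at a median of -0.33, and 23.8% were called against 29.7% of all genes. ODC1, the rate-limiting enzyme of polyamine synthesis, rose from 194 and 255 CPM to 1102 and 1112 CPM (log2 2.30 ± 0.22, edgeR adjusted p = 0.000918). HSPE1, a mitochondrial chaperonin, and PTMA fell by 1.30 and 1.20 (edgeR adjusted p of 0.00656 and 0.00744). With E6R against DMSO 0 of 21 passed, against 0% of all genes. The fitted change was above 0 for 19 of the 21, against 8725 of 16763 genes tested. The median was 0.39, against a median of 0.03 over all genes. This lean was not particular to MYC targets: 33 of the 35 DNA replication genes used below were above 0, at a median of 0.69. Of the 31 mitosis genes 25 were above 0, at a median of 0.22. In the direct contrast of E6R with TSA 12 were higher and 2 lower, ODC1 and CCND2, and the share called was 66.7% against 38.2%.

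Because MXD3 and MXD4 are tied to cycling and resting cells in textbook accounts, cells thinned to 1000 UMIs were ranked in each library by their summed UMIs of 35 DNA replication genes or of 31 mitosis genes. The upper and lower 25%, 296 to 697 cells each, were compared over the 6 libraries for all 9 members. MXD3 was higher in the replication-high cells in 6 of 6 libraries, at 40.4 ± 17.9 against 25.96 ± 18.4 CPM (SD, n = 6 libraries), and the exact paired permutation p was 0.0312, the smallest 6 pairs allow, but 0.225 after adjustment over the 18 comparisons. In mitosis-high cells MXD3 was higher in 5 of 6 libraries, at 50.2 against 24.3 CPM (exact permutation p = 0.0625, adjusted 0.225). TSA replicate 2 was the exception, at 23.0 against 31.6 CPM. The replication difference for MXD3, 14.4 CPM, was 6.37 CPM with 4 of 6 libraries higher when cells were thinned to 500 UMIs (exact permutation p = 0.25), and 7.69 CPM with 5 of 6 higher without the deepest 5% of cells (exact permutation p = 0.125).

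MXD4 went the other way: in mitosis-high cells it was higher in 0 of 6 libraries, with 108 against 167 CPM (exact permutation p = 0.0625, adjusted 0.225), and in replication-high cells in 1 of 6, with 108 against 150 CPM (exact permutation p = 0.0938, adjusted 0.281). DMSO replicate 1 had the widest gap, 155 against 378 CPM by mitosis genes, and DMSO replicate 2 was level at 167 CPM in both. With all cells split at the middle rank the MXD4 difference by mitosis genes was -29.3 CPM in place of -58.8, and by replication genes -18.8 in place of -41.3. A lower level in mitosis-high cells was not particular to MXD4. MAX had 57.8 against 72.8 CPM there and was higher in 1 of 6 libraries (exact permutation p = 0.0625, adjusted 0.225). With all cells split at the middle rank, MAX was higher in 0 of 6 libraries, at a difference of -14.4 CPM. It was also higher in 0 of 6 at 500 UMIs (-14.7 CPM) and without the deepest 5% of cells (-24.3 CPM). No comparison passed after adjustment. The groups are the ends of a per-cell score and not cell types, with cuts at 1 to 4 UMIs for the low and 4 to 9 UMIs for the high cells.

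**Figure D5:**
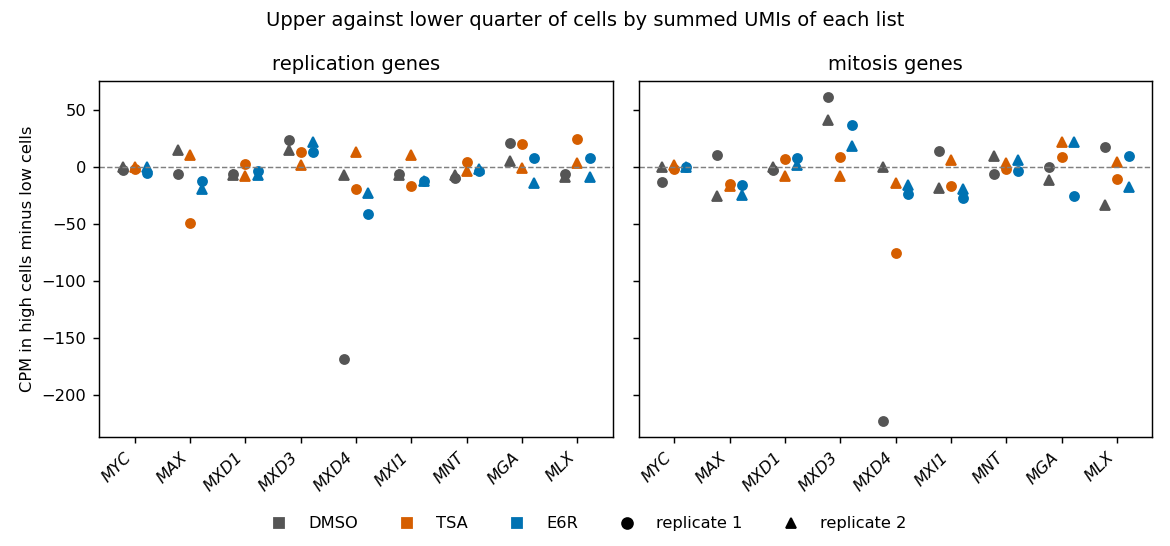
Difference in CPM (high minus low cells, vertical axis) of each member between the upper and lower 25% of cells ranked by replication genes (left) or mitosis genes (right); each point is a library, coloured by treatment, and the dashed line marks 0. MXD3 is above 0 in all 6 libraries on the left and in 5 on the right, and MXD4 is at or below 0 in all 6 on the right.

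The genes whose levels followed a member most closely over the 6 libraries, among some 7515 genes with a mean of at least 20 CPM, are given as a description, since all points share their libraries and treatments. MXD1 was most like HDAC3 (Pearson r of log2 CPM 0.999) and AAMP (0.998), MAX like BBS7 and HSPA1B (0.997 each), and MGA like FAM199X (0.997) and SMU1 (0.996). MLX was most like POC5 (0.9998) and GEMIN5 (0.995), and MXI1 like HEATR5A (0.992) and ARHGEF10 (0.991). High values were common for the members that rose with TSA: 1060 genes exceeded 0.9 with MXD1 and 922 with MAX. They were rare for MXD4, whose nearest genes were REEP4 and SRGAP2B (0.979 each) and which had 14 such genes, and for MXD3, with MAP1A and GPAT4 (0.969 each) and 7. MYC was most like CHST11 (0.976) and REST (0.975), which showed its split between replicates, CHST11 at 104 and 19.7 CPM with DMSO and 118 and 17.4 CPM with E6R, and MNT was most like NME6 (0.976) and ZNF655 (0.974).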

How the data were processed

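The deposited values are raw UMI counts per gene and barcode for 6 libraries; per the submitters' processing notes the authors used STARsolo 2.7.9a and GRCh38, while the annotation, the strand rule and the choice of deposited barcodes are not given in the sources used here. A barcode counted as a cell from 500 genes on and up to 20% mitochondrial UMIs. No doublet caller was run, and 1 alternative drops the deepest 5% of cells. Counts were summed over cells, the replicate unit being the library, filtered with filterByExpr, scaled by TMM and tested with edgeR 4.0.16 (R 4.3.3) in 1 fit of all 6 libraries on group alone, with p-values adjusted by Benjamini-Hochberg over 16763 genes; levels are TMM-scaled CPM except for markers and the cells with and without MYC, which are plain CPM. The model was tested on simulated data.

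Labels give replicates 1 and 2 in each treatment. Same-numbered libraries deviated together from their group means (r of 0.242 for DMSO and TSA, 0.564 for DMSO and E6R and 0.166 for TSA and E6R, over 7515 genes). The numbers may therefore pair the samples, from the data and not from a stated batch. The main fit and the permutation tests of shares between treatments did not use this pairing. The fit with a replicate block did, and it is given where it changes a call.

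Alternatives were RLE size factors, total counts, DESeq2 1.42.0, no low-count filter, only the groups compared, the block, each library left out, cell cut-offs of 300 or 1000 genes and 10% mitochondrial UMIs, all deposited barcodes, thinned cells, thinned sums, and no cells of shared barcodes. For shares and cell ranks each cell was thinned to 1000 UMIs. Depth limits MYC most: 3 counts, the floor used for a count of 0, are 0.115 to 0.713 CPM of a library's cells. GENCODE 29 positions matched 94.6% of gene IDs. Promoters were RefSeq GRCh38.p14. Members and gene lists were chosen with earlier results of these data known. The text names all 9 members, 8 network genes whatever their result, and from each other list at most 2 genes of smallest p in each direction and contrast; SNRNP27, FNTB, PSMC3IP, FN1 and PECAM1 were named after their values were seen.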

Additional observations from a re-analysis of the deposited data

Results flagged for a closer look

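The direct contrast of E6R with TSA called 2 of the 9 members, a share of 22.2%, against 38.2% of all genes tested. MAX with E6R differed from TSA by -0.98 on the log2 scale (edgeR adjusted p = 0.0068), and MXD1 by -2.14 (edgeR adjusted p = 0.0015). In both genes the 2 E6R libraries lay below the 2 TSA libraries, in a contrast where the groups did not overlap for 72.6% of all genes.

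Barcodes with fewer than 300 genes, which no comparison used, held 4912 UMIs of the members. MAX was higher in cells than in these barcodes in 6 of 6 libraries, MXD1, MXI1 and MLX in 5, MXD4 in 4, MXD3 in 3, MYC and MGA in 2 and MNT in 0.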

How the results depend on the processing

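Of 1011 refitted log2 changes of members and named network genes, 928 kept their direction and side of the threshold, 33 lost and 22 gained a call and 28 changed sign. The 5 members called for TSA ranged from 2 to 5 when 1 library was left out and were 3 with cells thinned to 1000 UMIs, by construction on fewer UMIs; E6R against DMSO gave 1, MXD4 (adjusted p = 0.0104), without the low-count filter, and E6R against TSA 1 to 3 with a library left out. With the replicate block the members called were 5, 0 and 3; MXD4 for E6R against TSA was gained (log2 -0.82) and no other member's call changed. Scaling by total counts moved the median of all genes for TSA from -0.01 to -0.32; MXI1 and MGA then missed the threshold and MNT passed as lower, so calls were 3 higher and 1 lower. MXI1 was also lost with RLE factors (0.0533) and at 10% mitochondrial UMIs (0.0923). Over all genes, E6R against DMSO gave 0 calls, 338 with DESeq2, 19 with the block and 1095 without the filter; TSA gave 4975, and 1416 without TSA replicate 2, 1769 without TSA replicate 1, 2508 and 2696 without DMSO replicates 1 and 2. The cause of these changes was not tested.

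Sign changes were of uncalled values. For E6R against DMSO, MYC was -0.058 with total counts, -0.081 with the block, -0.035 at 10% mitochondrial UMIs, -0.20 without the deepest cells, -0.093 with thinned cells and -0.16 with thinned sums; MXD1 was 0.45 with thinned cells; ARRDC4 was 0.0034 with all barcodes; SIN3A was -0.037 with total counts, -0.045 at 1000 genes and -0.023 with thinned cells; SIN3B was 0.038 without the filter and 0.036 with all barcodes. For TSA, MLXIP was -0.12 with total counts. With a library left out, TSA ranges were -1.75 to 1.32 for MYC, -0.67 to 0.074 for MXD3 and -0.18 to 0.62 for MLXIP. E6R ranges were -2.42 to 2.35 for MYC, -0.31 to 0.067 for MXD1, -0.64 to 0.24 for MNT, -0.29 to 0.90 for TXNIP, -0.51 to 0.079 for ARRDC4, -0.034 to 0.42 for SIN3A and -0.16 to 0.091 for SIN3B. MYC ranged from -1.62 to 1.85 for E6R against TSA. Of 216 shares, 61 moved by more than the spread. No cell-rank comparison passed with all cells split at the middle rank, at 500 UMIs or without the deepest cells. The alternative without shared barcodes was chosen after seeing the data.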
